A study of Mus musculus with 8 samples.

Results

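Collagen is modified on its proline and lysine residues inside the cell, folded with the help of a dedicated chaperone, and crosslinked outside the cell. The 10 genes described here encode enzymes and the chaperone of these steps: the 5 lysyl oxidases Lox, Loxl1, Loxl2, Loxl3 and Loxl4, the 3 lysyl hydroxylases Plod1, Plod2 and Plod3, the prolyl 4-hydroxylase alpha subunit P4ha3, and Serpinh1, which encodes the collagen chaperone HSP47. They were picked by name as a functional group, with earlier results of these data known, and are 10 of the 22880 genes counted. The alpha subunits P4ha1 and P4ha2 were not picked. Counts of members called therefore describe this list and do not test it. All 10 members passed the filter on low counts that left 14001 genes for testing.

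The RNA came from soleus muscles, which are rich in slow fibres, of 4 control mice (Dnm2 +/+) and 4 Dnm2 +/K562E mice, all of them males aged 2 months and labelled C57BL/6 (the J substrain in the study's methods). The mutant mice are heterozygous for a K562E point mutation in dynamin 2, a GTPase that cuts endocytic vesicles from membranes, knocked into the endogenous gene. The allele is therefore present in every cell type of the muscle, and it keeps 1 LoxP site in an intron. In whole-muscle RNA, more cells of a type and more RNA per cell cannot be told apart.

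As background, prolyl 4-hydroxylation stabilises the collagen triple helix, and HSP47 binds the folded helix in the endoplasmic reticulum. Lysyl hydroxylation prepares lysines for glycosylation and for more stable crosslinks, with Plod2 acting on the telopeptides at the ends of the chains. After secretion, lysyl oxidases, which are copper enzymes, oxidise lysines and hydroxylysines so that neighbouring collagen and elastin molecules become covalently joined, which stiffens tendon and the connective tissue around muscle fibres.

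Total counts ran from 33407430 to 48832814 per mouse, and a member's own counts from 22 to 11144. Normalized CPM is a count divided by the library size after its correction with a TMM factor, which edgeR takes from the bulk of the genes. TMM factors were 0.915 to 0.959 in controls and 1.04 to 1.10 in mutants. With library size alone as the scale, the median over all genes moved from 0.01 to 0.22 in log2 fold change. Called genes are those with an adjusted p under 0.05 in edgeR's quasi-likelihood test (Benjamini-Hochberg, over all genes tested) whose log2 fold change is also 0.58 or more, or -0.58 or less. Dnm2 itself was at 59.2 to 68.8 CPM in controls and 70.3 to 76.1 CPM in mutants and was not called, with a log2 fold change of 0.15, and gene counts do not separate its 2 alleles.

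Of the 10 members, 7 were called higher in Dnm2 +/K562E muscle (Lox, Loxl1, Loxl2, Loxl3, Loxl4, Plod2 and P4ha3) and 0 were called lower. Among all genes tested, 12.9% were called higher and 7.85% lower, that is 1806 and 1099 genes, and with library size alone as the scale 2865 and 564 genes. The median log2 fold change was 1.12 over the members and 0.01 over all genes. On adjusted p alone, 9 of 10 members were higher and 0 lower, against 22.2% and 21.7% of all genes. In 9 of 10 members all 4 mutant mice lay above all 4 controls, a pattern found in 20.6% of all genes. Plod3 was the member whose genotypes overlapped. The same 7 members were called under every setting tried for normalization, filtering and test, and without each mouse in turn.

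**Figure D1:**
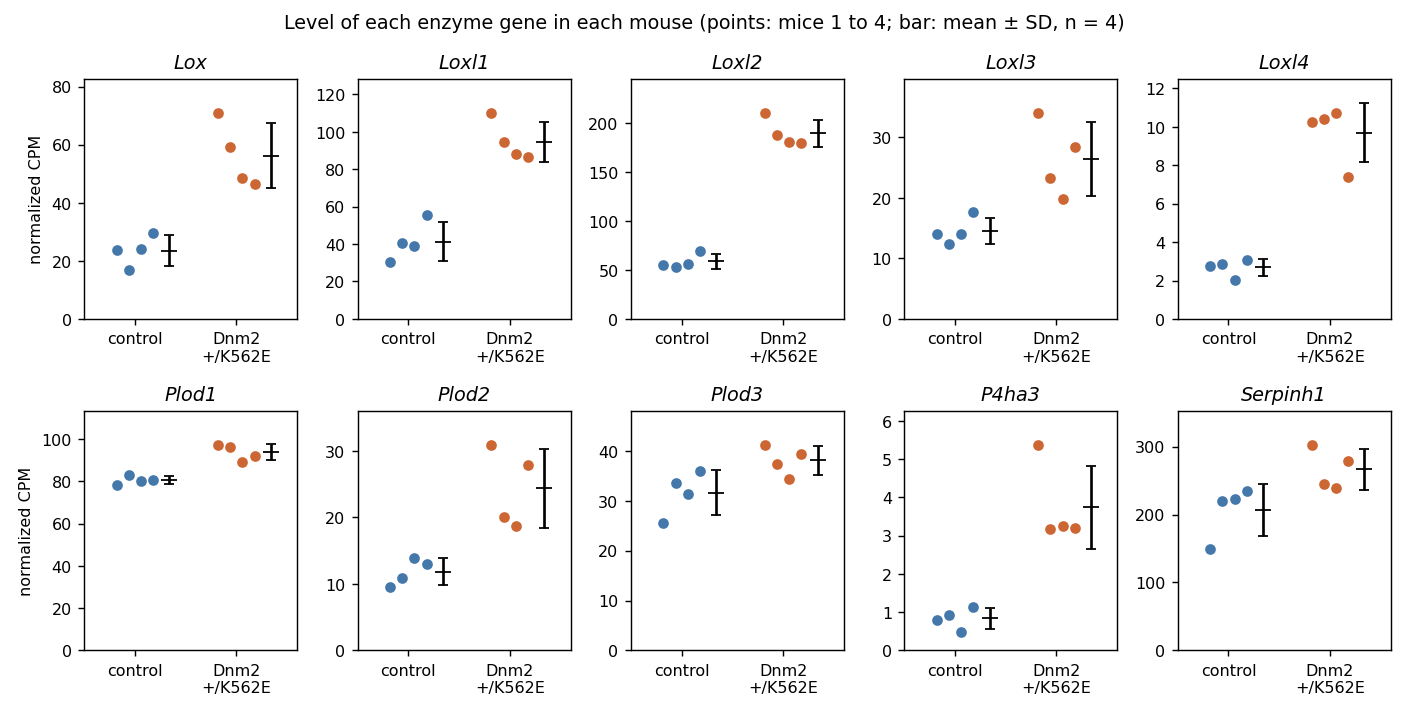
Level of each of the 10 genes in each mouse as normalized CPM on a linear axis from 0, with controls in blue, Dnm2 +/K562E mice in orange and the mean ± SD (n = 4) as a black bar beside them. The points of the 2 genotypes are apart in 9 of the 10 panels, and in Plod3 the mutant range of 34.4 to 41.2 CPM overlaps the control range of 25.5 to 36.1 CPM.

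P4ha3, an alternative alpha subunit of the prolyl 4-hydroxylase that converts proline to hydroxyproline in the collagen repeat, had the highest fold change of the 10 and the lowest level. It stood at 0.80, 0.92, 0.49 and 1.15 CPM in controls 1 to 4 and at 5.38, 3.18, 3.24 and 3.19 CPM in Dnm2 +/K562E mice 1 to 4. Every mutant was above every control, and mutant 1 was well above the other 3 mutants, which were nearly equal. The mean rose from 0.841 ± 0.273 to 3.75 ± 1.09 CPM (SD, n = 4). This was a log2 fold change of 2.17 with a standard error of 0.29 (edgeR, adjusted p = 1.50e-04). Without mutant 1 the log2 fold change was 1.94. The gene spans chr7:100285520-100319699 on the plus strand of GRCm38.

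The other alpha subunits, given for comparison, were not called. P4ha1, the most abundant alpha subunit per exon length in these muscles, was at 35.7, 46.2, 48.8 and 53.7 CPM in controls and 70.1, 51.8, 51.9 and 61.0 CPM in mutants, with overlapping genotypes, a log2 fold change of 0.35 and an adjusted p of 0.0519 (edgeR). P4ha2 was at 24.7 to 34.2 CPM in controls and 26.5 to 33.6 CPM in mutants, with a log2 fold change of -0.01. P4hb, the shared beta subunit, rose by a log2 fold change of 0.30 (SE 0.06; edgeR, adjusted p = 0.00201), below the fold threshold. Per kilobase of exon, P4ha3 made up 1.66% ± 0.52 of the alpha subunit transcripts in controls and 5.83% ± 0.96 in mutants (SD, n = 4), with ranges of 0.898% to 2.00% and 4.79% to 7.12%. P4ha3 thus stayed a minor share of the alpha subunits in both genotypes.

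Plod2, the lysyl hydroxylase of the telopeptides, was called higher, while the other lysyl hydroxylases were not. It was at 9.53, 10.9, 13.9 and 13.04 CPM in controls 1 to 4 and at 30.9, 20.0, 18.7 and 27.9 CPM in mutants 1 to 4. The genotypes were apart, with mutants 1 and 4 above mutants 2 and 3. Plod2 had a log2 fold change of 1.04 with a standard error of 0.17 (edgeR, adjusted p = 7.30e-04).

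Plod1, which hydroxylates lysines of the helix, had the smallest standard error of the 10 log2 fold changes. Controls were at 78.4, 83.2, 80.2 and 80.9 CPM and mutants at 97.4, 96.5, 89.3 and 91.9 CPM, so that the genotypes were apart. Its log2 fold change of 0.22 (SE 0.05; edgeR, adjusted p = 0.00785) passed the adjusted p and was below the fold threshold.

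Plod3, which besides lysyl hydroxylase activity carries glycosyltransferase activity towards hydroxylysine, was at 25.5, 33.5, 31.3 and 36.1 CPM in controls and at 41.2, 37.3, 34.4 and 39.4 CPM in mutants. Control 4 was above mutant 3, and control 1 was the lowest mouse. The log2 fold change was 0.27 with a standard error of 0.10 (edgeR, adjusted p = 0.0544). This value lay close to the threshold, and without control 4 or without mutant 3 the adjusted p was 0.0277 and 0.0469 (edgeR).

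Within each mouse, the genotypes were apart in the 2 lysyl hydroxylase ratios that involve Plod2. The log2 ratio of Plod2 to Plod3 counts was -1.42, -1.62, -1.17 and -1.47 in controls 1 to 4 and -0.42, -0.90, -0.88 and -0.50 in mutants 1 to 4, a difference of 0.75 with a standard error of 0.16. The log2 ratio of Plod1 to Plod2 was 2.78 ± 0.24 in controls and 1.97 ± 0.33 in mutants (SD, n = 4). In both, every mutant lay on the same side of every control, while the ratio of Plod1 to Plod3 overlapped and differed by -0.06 with a standard error of 0.10. Per kilobase of exon, Plod2 was 10.4% ± 1.35 of the lysyl hydroxylase transcripts in controls and 16.7% ± 2.90 in mutants (SD, n = 4), Plod1 56.6% ± 3.16 and 51.9% ± 2.91, and Plod3 33.0% ± 2.56 and 31.4% ± 0.22.

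Serpinh1 had the highest level of the 10 on both scales. It was at 149, 220, 223 and 234 CPM in controls 1 to 4 and at 303, 245, 240 and 279 CPM in mutants 1 to 4. The genotypes were apart, but by a narrow margin between control 4 and mutant 3, and control 1 was far below the other controls. The log2 fold change was 0.37 with a standard error of 0.13 (edgeR, adjusted p = 0.0437), so it passed the adjusted p without reaching the fold threshold. That p missed 0.05 without control 2 (0.0663), control 3 (0.0556), mutant 1 (0.121), mutant 2 (0.0508) or mutant 4 (0.0941), with the same edgeR test. Without control 1, the log2 fold change was 0.23.

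All 5 lysyl oxidases were called higher. Loxl2, which also acts on basement membrane collagen IV, had the smallest p-value of the 10. Controls were at 55.1, 53.5, 56.5 and 69.9 CPM and mutants at 210, 188, 181 and 180 CPM, so the lowest mutant was far above the highest control. The mean rose from 58.8 ± 7.52 to 190 ± 14.2 CPM (SD, n = 4), or by 1.69 on the log2 scale with a standard error of 0.09 (edgeR, adjusted p = 6.94e-07), and by this p-value Loxl2 ranked 35th of the 14001 genes. Of the 31-base stretches in the Loxl2 transcripts, 43.3% also occur in Gm21451, a gene that is not among the counted identifiers. Reads from such stretches can be lost to the authors' filter on mapping quality, so the level of Loxl2 may be understated in both genotypes.

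Loxl4 had the lowest level of the lysyl oxidases and the highest fold change among them. It was at 2.77, 2.85, 2.04 and 3.09 CPM in controls 1 to 4 and at 10.3, 10.4, 10.7 and 7.40 CPM in mutants 1 to 4. The genotypes were apart, with mutant 4 below the other mutants. The log2 fold change was 1.86 with a standard error of 0.17 (edgeR, adjusted p = 1.14e-05). The gene lies at chr19:42593982-42612813 on the minus strand.

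Lox, the founding member of the family, whose propeptide is removed by Bmp1, was at 23.7, 16.7, 24.0 and 29.5 CPM in controls and at 70.8, 59.4, 48.4 and 46.3 CPM in mutants. The genotypes were apart, and control 2 was the lowest mouse. Its log2 fold change was 1.26 with a standard error of 0.17 (edgeR, adjusted p = 1.91e-04).

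Loxl1, known for its part in elastic fibre maintenance, was at 30.4, 40.7, 38.8 and 55.4 CPM in controls and at 110, 94.6, 88.2 and 86.5 CPM in mutants. Control 4 was the highest control and still below every mutant. Between the genotypes the log2 fold change was 1.20, with a standard error of 0.16 (edgeR, adjusted p = 1.30e-04).

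Loxl3 had the smallest fold change of the lysyl oxidases. It was at 14.0, 12.4, 14.0 and 17.6 CPM in controls and at 33.9, 23.3, 19.8 and 28.4 CPM in mutants, with mutant 3 only a little above control 4. Its log2 fold change was 0.86 with a standard error of 0.16 (edgeR, adjusted p = 0.00147). Its exons share 535 bases, 11.6% of their length, with exons of Htra2 on the other strand, and those of Plod3 share 529 bases, 11.7%, with Znhit1. Whether strand was used in the counting is not given in the sources used here, so reads over these stretches cannot be assigned with certainty.

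Per kilobase of exon the lysyl oxidases together rose from 32.1 ± 5.69 to 83.7 ± 9.30 CPM per kb (SD, n = 4). Loxl1 and Loxl2 had the highest mean levels in both genotypes. Loxl1 was 38.8% ± 4.34 of the summed lysyl oxidase level in controls and 34.4% ± 0.26 in mutants, and Loxl2 34.1% ± 1.77 and 42.1% ± 1.47. The Loxl2 share was 31.9% to 36.3% in the 4 controls and 40.2% to 43.4% in the 4 mutants. Lox was 15.3% ± 2.42 and 14.0% ± 1.33, Loxl3 9.85% ± 0.72 and 6.82% ± 1.17, and Loxl4 2.01% ± 0.38 and 2.76% ± 0.45.

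Within each mouse, the log2 ratio of Loxl2 to Loxl3 was 1.97, 2.11, 2.02 and 1.99 in controls 1 to 4 and 2.63, 3.01, 3.19 and 2.66 in mutants 1 to 4, a difference of 0.85 with a standard error of 0.14. That of Loxl1 to Loxl2 differed by -0.47 (SE 0.12) and that of Loxl3 to Loxl4 fell by 1.00 (SE 0.28). In these 3 pairs the genotypes were apart, while in the other 7 lysyl oxidase pairs they overlapped, with differences from -0.62 for Loxl1 to Loxl4 up to 0.42 for Lox to Loxl3.

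Over the 3 families 16 ratios were compared by an exact two-sided permutation test, in which 4 against 4 mice cannot go below p = 0.0286. This smallest p was reached by 8 ratios: the 3 lysyl oxidase pairs above, Plod2 with Plod1 and with Plod3, and all 3 pairs of P4ha1, P4ha2 and P4ha3. Adjusted over the 16 ratios by the Benjamini-Hochberg method it became 0.0571 in the exact test, so that none of the 16 passed 0.05 after adjustment. The ratios share genes, so they are not separate results. How often ratios of other gene pairs lie apart was not counted. Among single genes, 20.6% had all mutants above all controls, and the share with all mutants below all controls is not given here. A ratio was counted as apart in either direction, so the 20.6% cannot be set against the 8 of 16 ratios. The largest difference was that of P4ha2 to P4ha3, at -2.17 with a standard error of 0.34. P4ha1 to P4ha3 differed by -1.81 (SE 0.29) and P4ha1 to P4ha2 by 0.36 (SE 0.09).

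**Figure D2:**
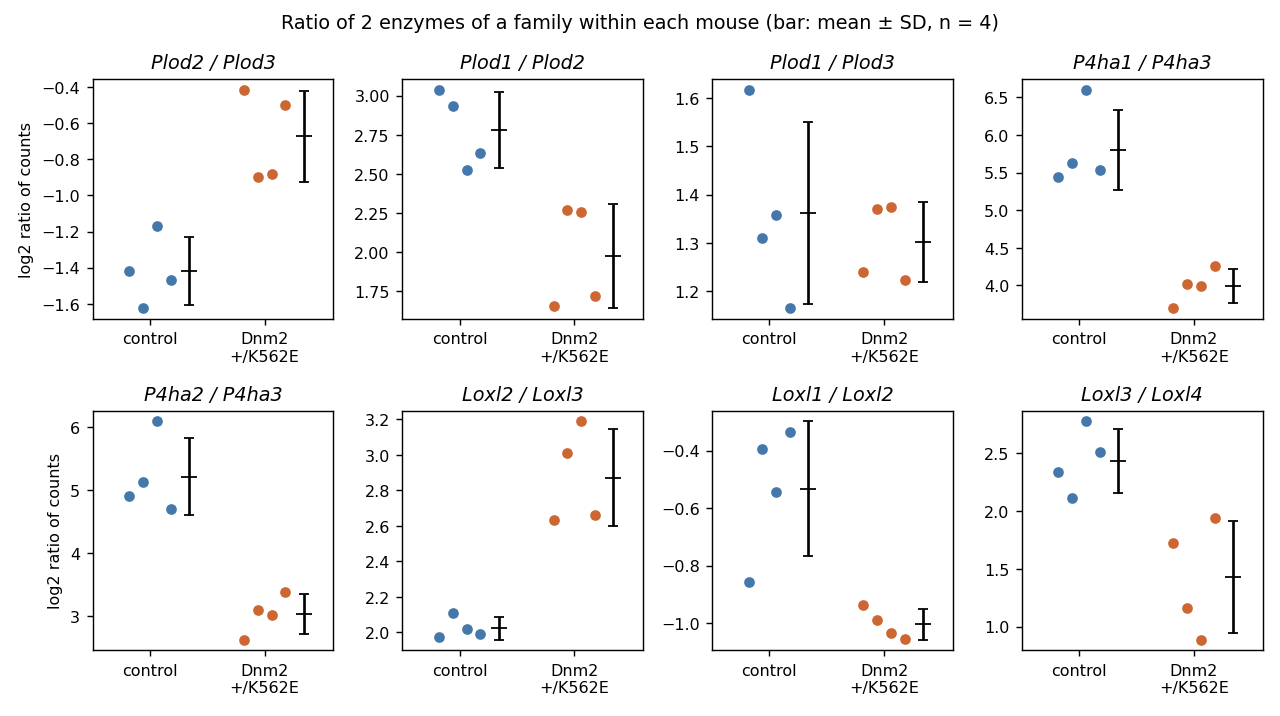
Log2 ratio of the counts of 2 enzymes of a family within each mouse for 8 of the 16 pairs, with controls in blue, Dnm2 +/K562E mice in orange and the mean ± SD (n = 4) in black. The axes differ between panels and do not start at 0. The genotypes are apart in 7 of the 8 panels and overlap for Plod1 to Plod3, where the difference is -0.06. Over all 16 pairs they are apart in 8, so the panels show mostly the separated pairs.

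By level per kilobase of exon, the order in controls was Serpinh1 (84.6 CPM per kb), Loxl1 (12.5), Plod1 (11.9), Loxl2 (10.9), Plod3 (6.99), Lox (4.91), Loxl3 (3.15), Plod2 (2.20), Loxl4 (0.638) and P4ha3 (0.268). The control ranges of Loxl1, Plod1 and Loxl2 overlapped, as did those of Plod3 with Lox and of Lox with Loxl3, while Serpinh1, Loxl4 and P4ha3 stood apart from their neighbours. In mutants the order was Serpinh1 (109 CPM per kb), Loxl2 (35.1), Loxl1 (28.7), Plod1 (13.9), Lox (11.8), Plod3 (8.43), Loxl3 (5.73), Plod2 (4.52), Loxl4 (2.30) and P4ha3 (1.20). There Loxl2 overlapped Loxl1, Plod1 overlapped Lox and Loxl3 overlapped Plod2, whereas the lowest Lox value was above the highest Plod3 value.

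The highest mouse of a genotype was the same one for most members. Control 4 was the highest control for 8 of the 10 members and mutant 1 the highest mutant for 9 of 10. Control 1 was the lowest control for 5 members and mutant 3 the lowest mutant for 5.

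The promoter sequences of P4ha3 and Loxl4, the members with the highest fold changes, and of Serpinh1, the most abundant and among the least changed, are shown for comparison. Each line gives the 250 bases before the RefSeq start site (GRCm38.p6, in the orientation of the gene), with matches to the motifs listed after them in capitals. They lie at chr7:100285270-100285519 on the plus strand for P4ha3, chr19:42612807-42613056 on the minus strand for Loxl4 and chr7:99353240-99353489 on the minus strand for Serpinh1.
P4ha3: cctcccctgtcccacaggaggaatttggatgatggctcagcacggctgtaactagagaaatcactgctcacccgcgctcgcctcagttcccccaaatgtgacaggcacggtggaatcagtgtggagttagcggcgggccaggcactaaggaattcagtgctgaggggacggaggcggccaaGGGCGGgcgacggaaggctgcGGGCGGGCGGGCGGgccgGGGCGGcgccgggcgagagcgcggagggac
Loxl4: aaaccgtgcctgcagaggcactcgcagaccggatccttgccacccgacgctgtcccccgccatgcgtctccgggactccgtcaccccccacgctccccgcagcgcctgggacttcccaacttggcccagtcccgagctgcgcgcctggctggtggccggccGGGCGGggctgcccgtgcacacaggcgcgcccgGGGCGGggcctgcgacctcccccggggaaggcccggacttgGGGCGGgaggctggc
Serpinh1: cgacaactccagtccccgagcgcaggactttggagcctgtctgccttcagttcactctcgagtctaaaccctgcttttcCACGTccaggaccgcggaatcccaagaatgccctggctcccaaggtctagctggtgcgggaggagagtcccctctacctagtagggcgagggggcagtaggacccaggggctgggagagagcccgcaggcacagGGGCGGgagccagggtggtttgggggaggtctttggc

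The search covered the GC box (GGGCGG), the TATA box (TATAAA), the CCAAT box (CCAAT), the core of the hypoxia response element (ACGTG), an AP-1 site (TGANTCA), a TEAD site (CATTCC) and the core of the heat shock element (GAANNTTC), on both strands and counting overlapping matches of the same motif. P4ha3 had 5 matches to the GC box, some of them overlapping, Loxl4 had 3 and Serpinh1 had 1, and Serpinh1 also had 1 match to the hypoxia response core. None of the 3 held a match to the TATA box, the CCAAT box, AP-1, TEAD or heat shock letters. Of the 5 members found in the promoter table, Plod1 had 2 GC box matches and 1 to the TATA box, and Plod3 had 1 each to the CCAAT box and the hypoxia response core. Among all 32851 promoters of the same length, 32.7% held a GC box match, 12.4% the TATA box, 33.8% the CCAAT box, 16.6% the hypoxia response core, 6.75% the AP-1 site, 12.6% the TEAD site and 6.69% the heat shock core. GC content was 67.2% for P4ha3, 76.0% for Loxl4 and 63.6% for Serpinh1, against a median of 52.4% over all promoters. These matches describe the letters of the windows and say nothing of binding. Lox, Loxl1, Loxl2, Loxl3 and Plod2 were not in the table.

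Genes of the collagen chains that these enzymes modify were counted next. Of 9 fibrillar collagen chain genes, 6 were called higher and 0 lower, with a median log2 fold change of 1.00. Col1a1 rose from 566 ± 145 to 1131 ± 185 CPM and Col3a1 from 708 ± 152 to 1569 ± 184 CPM (SD, n = 4), with log2 fold changes of 1.00 and 1.15. Col5a2 had the highest value of the list, 1.41, while Col5a3 at 0.11 and Col2a1 at 0.15 were the lowest and were not called.

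Because 6 of the 9 collagen chain genes were called higher, the members were set against 3 references within each mouse: the summed counts of Col1a1, Col1a2 and Col3a1, the geometric mean of the fibroblast markers and, added after the data were seen, that of the tendon markers. Relative to fibrillar collagen, 3 members were higher, P4ha3 by a log2 fold change of 1.09 (SE 0.32), Loxl4 by 0.78 (SE 0.24) and Loxl2 by 0.62 (SE 0.22), with edgeR adjusted p of 8.52e-04, 0.00149 and 0.00602. On this scale 1.92% of all genes were higher and 82.0% lower on adjusted p alone, with a median log2 fold change of -1.07. Plod1 fell by 0.87 (SE 0.22), Plod3 by 0.81 (SE 0.21) and Serpinh1 by 0.72 (SE 0.23), with edgeR adjusted p of 1.28e-04, 2.08e-04 and 0.00195, so that these 3 moved with the majority of genes. The other 4, Lox at 0.20, Loxl1 at 0.13, Plod2 at -0.05 and Loxl3 at -0.20, did not pass the test. The level of Lox relative to collagen overlapped between the genotypes, at -6.60 to -6.23 in controls and -6.33 to -6.14 in mutants on the log2 scale, whereas that of Loxl2 was -5.24 to -4.92 in controls and -4.57 to -4.36 in mutants.

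Relative to the fibroblast markers, the same 3 members were higher (P4ha3 1.25, Loxl4 0.92 and Loxl2 0.77) and the same 3 lower (Plod1 -0.72, Plod3 -0.65 and Serpinh1 -0.54), where 2.91% of all genes were higher and 79.6% lower. Without control 4, Lox at 0.35 and Loxl1 at 0.34 were also higher on this scale, which made 5 members, and Lox at 0.40 without control 1 and at 0.36 without mutant 4. After TMM the fibroblast markers themselves ran from -0.19 (Ly6a) to 1.69 (Pdgfrl) in log2 fold change, and Loxl2 rose by 1.69. Loxl2 thus rose more than the mean of these markers, but not more than each of them. Relative to the tendon markers, the same 3 were again higher (P4ha3 1.15, Loxl4 0.85 and Loxl2 0.67) and the same 3 lower (Plod1 -0.83, Plod3 -0.79 and Serpinh1 -0.71), where 1.74% of all genes were higher and 76.9% lower. On the tendon scale the edgeR adjusted p of Loxl2 was 0.0305, and it missed 0.05 without control 1 (0.0887) or mutants 2 (0.0590), 3 (0.0838) or 4 (0.0715). Serpinh1 missed it on that scale without control 2 (0.110), control 3 (0.108), mutant 1 (0.0631) or mutant 2 (0.0955), in the same edgeR test. The Serpinh1 ratios overlapped between the genotypes on all 3 scales, and an exact two-sided permutation test on them, not adjusted, gave p = 0.0571 for collagen and for the fibroblast markers and 0.143 for the tendon markers. The same exact test gave 0.0857 for Plod3 against the tendon markers, where the genotypes also overlapped. Loxl2, Loxl4, P4ha3 and Plod1 had genotypes apart on all 3 scales. Noise in the reference of a mouse is shared by every gene, so the edgeR p-values on these scales may be too small.

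**Figure D3:**
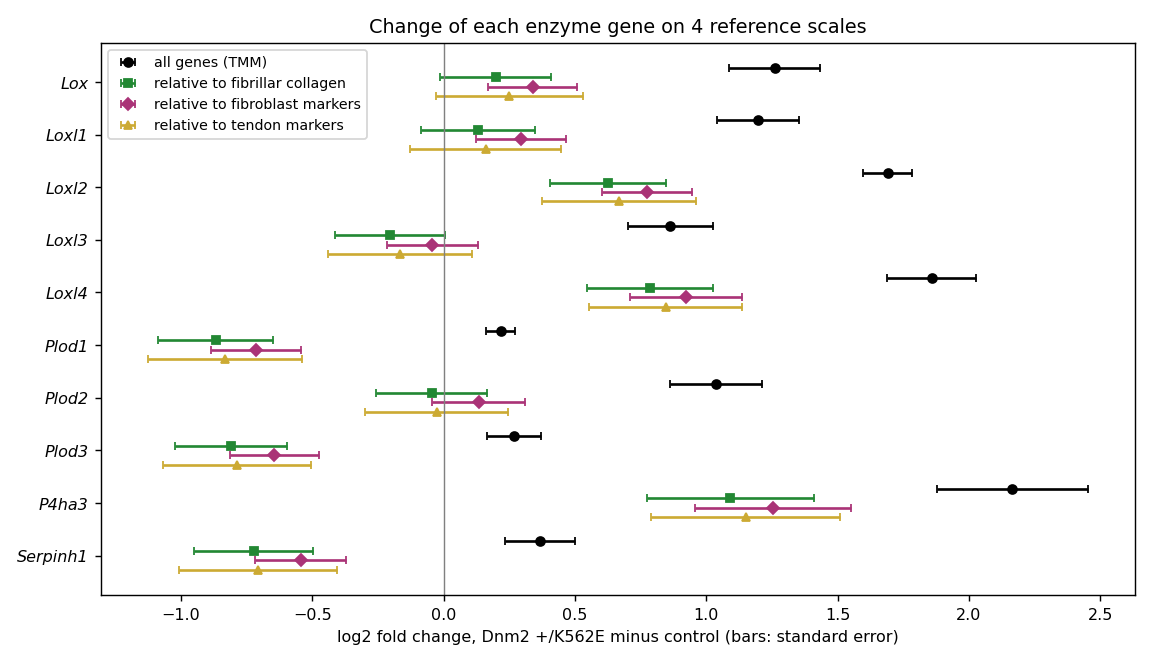
Log2 fold change of each of the 10 genes between Dnm2 +/K562E and control mice (4 each) on 4 scales: all genes after TMM (black circles), and relative to fibrillar collagen (green squares), fibroblast markers (purple diamonds) and tendon markers (yellow triangles), with bars of 1 standard error. P4ha3, Loxl4 and Loxl2 lie above 0 on each scale, and Plod1, Plod3 and Serpinh1 lie below 0 on the 3 relative scales.

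The proteins that work beside the members were counted by step. In prolyl hydroxylation, 4 of 9 genes were called higher and 0 lower (median log2 fold change 0.51). They were the prolyl 3-hydroxylases P3h2 (1.08) and P3h3 (1.05), P3h1 (0.71) and its partner Crtap (0.59), while P3h4 (0.26) was not called and P4ha2 had the lowest value. Among the 5 partners of lysyl hydroxylation and collagen glycosylation, 2 were called higher and 0 lower (median 0.25). Fkbp10, which encodes a foldase known to assist Plod2, rose from 13.01 ± 1.85 to 27.2 ± 2.71 CPM (SD, n = 4), or by 1.07 on the log2 scale, and the zinc transporter Slc39a13 rose by 0.60. The galactosyltransferase Colgalt1 at 0.12 and the ion channel Tmem38b at -0.27 were not called. Tmem38b was lower on adjusted p alone (edgeR, adjusted p = 0.00899), with all mutants below all controls.

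In procollagen folding and export, 1 of 8 genes was called higher and 0 lower (median log2 fold change 0.15). The called gene was Sec24d at 0.75, a coat protein of the vesicles that leave the endoplasmic reticulum, and next to it stood the foldase Fkbp7 at 0.57, just below the fold threshold. The lowest were Mia2 at -0.28 and Creb3l1 at -0.23, of which Mia2 was lower on adjusted p alone (edgeR, adjusted p = 0.00430). Of 8 procollagen processing genes, 6 were called higher and 0 lower (median 0.85). The procollagen N-proteinase Adamts3 rose from 1.67 ± 0.51 to 8.71 ± 0.65 CPM (SD, n = 4), or by 2.37 on the log2 scale, and the enhancer protein Pcolce rose by 1.03. Bmp1, which cleaves the C-propeptide and pro-Lox, rose by 0.84. Tll2 at -0.75 and Tll1 at 0.63 did not pass the adjusted p.

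Of 8 genes of elastin and of proteins that bind or place lysyl oxidases, 6 were called higher and 0 lower (median log2 fold change 0.94). Postn, which encodes periostin, a scaffold for Bmp1 and Lox, rose from 211 ± 23.4 to 937 ± 156 CPM (SD, n = 4), or by 2.15 on the log2 scale, and Thbs1 rose by 1.54. Elastin itself, the other substrate of the lysyl oxidases, was not called, with a log2 fold change of -0.37 (SE 0.22), and the elastic fibre protein Fbln5 stood at 0.36. Of 5 other enzymes that crosslink matrix, 3 were tested and 1 was called, the coagulation factor F13a1 at 0.90, which macrophages also make. The genotypes overlapped in F13a1, with control 4 at 51.9 CPM and mutant 4 at 37.5 CPM. Tgm2 stood at -0.03 and Pxdn at 0.16.

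Genes for the supply of cofactors were not called. Of 7 genes of copper and ascorbate supply, 5 were tested and 0 were called in either direction (median log2 fold change 0.09), while on adjusted p alone the copper chaperone Atox1 was higher, at 0.45, and the copper importer Slc31a1 lower, at -0.31. Slc31a2 stood at 0.22 and the ascorbate transporter Slc23a2 at 0.07, and Slc23a1 had 0 counts in every mouse. Of 10 genes of the response to low oxygen, a programme to which Plod2, Lox and P4ha1 are known to respond, 0 were called higher and 2 lower (median -0.27). These were Vegfa, which fell by 1.37, and Egln1, which fell by 0.61. Egln3 at 0.16 and Pdk1 at -0.06 had the highest values. Whether low oxygen acted on the members was not tested. Of 5 TGF-beta ligands and targets, 4 were called higher and 0 lower (median 1.21). Ccn2 at 1.94 and Tgfb2 at 1.28 were the highest, with Tgfb1 at 0.50 and Tgfb3 at 0.62 the lowest. Ccn2 varied widely, at 115 to 176 CPM in controls and at 739, 188, 506 and 783 CPM in mutants 1 to 4.

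**Figure D4:**
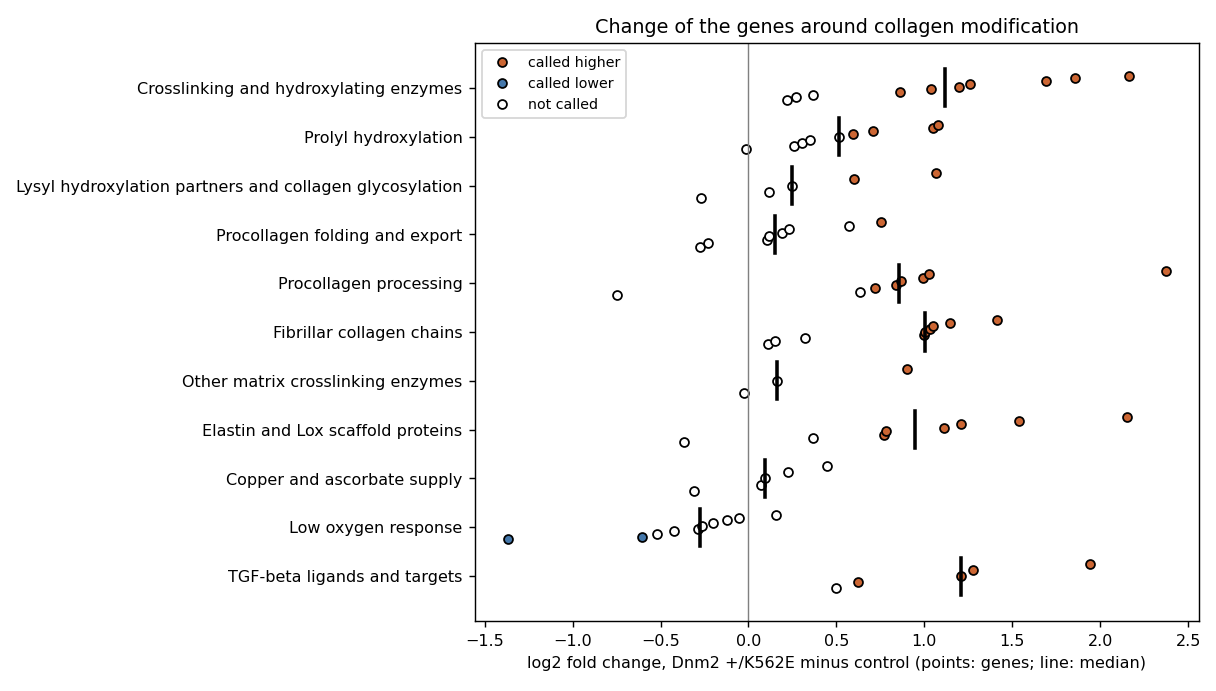
Log2 fold change (Dnm2 +/K562E minus control, 4 mice each) of every tested gene in each list, with called genes filled in orange (higher) or blue (lower), the rest open, and a vertical line at the list's median. The members have a median of 1.12, and the fibrillar chains, the TGF-beta genes and the elastin and Lox scaffold genes also lie mostly to the right of 0, with medians of 1.00, 1.21 and 0.94, while the low oxygen genes have a median of -0.27.

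Markers of several cell types moved with the members. The muscle fibre genes expected of the tissue were abundant, with a sum of 8 markers at 34438 to 37948 CPM in controls and 21230 to 24378 CPM in mutants, with 0 called higher and 4 of 8 called lower. Ckm at -1.02 and Tnnc1 at -0.69 were the lowest, and Tnnt1 at -0.48 and Tnni1 at -0.15, the highest, were not called. Tnnt1 was lower on adjusted p alone (edgeR, adjusted p = 9.16e-04). Fibroblast markers were called higher for 5 of 7, and their sum was 335 to 464 CPM in controls and 609 to 780 CPM in mutants, with Lum at 1.65 and Pdgfrl at 1.69 on the log2 scale, and Ly6a at -0.19 and Dpep1 at 0.31 not called. Ly6a was lower on adjusted p alone (edgeR, adjusted p = 0.0332). Tendon markers were called higher for 5 of 6, with sums of 327 to 737 CPM and 933 to 1292 CPM. Tnmd at 1.42 and Mkx at 1.18 were the highest of them, and Chad at -0.04 and Comp at 0.98 the lowest.

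Macrophage markers were called higher for 7 of 7, with sums of 72.8 to 135 CPM and 179 to 296 CPM. Lgals3 at 2.10 and Cd68 at 1.77 were the highest, and Mrc1 at 1.15 and Csf1r at 1.18 the lowest. Control 4 was the highest control and mutant 1 the highest mutant in the tendon and macrophage sums, as in most members. The same held for the adipocyte, fibrillar collagen, prolyl hydroxylation, procollagen folding and procollagen processing sums. It also held for the sums of the other matrix crosslinking enzymes and of the elastin and Lox scaffold genes. In the fibroblast sum the highest were control 4 and mutant 2. None of 5 endothelial markers was called higher and 1 was called lower, with sums of 921 to 968 CPM and 651 to 751 CPM, and of 5 smooth muscle and pericyte markers 0 were called higher and 2 lower, with sums of 1511 to 1671 CPM and 1112 to 1318 CPM. The lowest of these were Kdr at -0.64 and Tie1 at -0.46 on the endothelial side and Acta2 at -0.82 and Myh11 at -0.63 on the other, and the highest Pecam1 at -0.26, Cdh5 at -0.40, Cspg4 at 0.56 and Pdgfrb at 0.16. Among 5 Schwann cell and 5 adipocyte markers 0 were called in either direction, with sums of 181 to 200 and 153 to 188 CPM for the former and 32.4 to 186 and 54.6 to 104 CPM for the latter. Of 5 cartilage markers 2 could be tested and 0 were called, with sums of 3.00 to 5.75 and 3.73 to 4.62 CPM, and Matn1 had 0 counts in every mouse. What part these cell types had in the change of the members was not tested beyond the fibroblast and tendon ratios above.

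For each called member the tested gene with the closest course over the 8 mice, by the root mean square distance of centred log2 CPM, was listed as a description. It was Ssc5d for Loxl2 (distance 0.10), with a log2 fold change of 1.65 and a level of 57.0 CPM in controls and 179 CPM in mutants, next to 58.8 and 190 CPM for Loxl2. For Lox it was Colec12 (0.13), for Loxl1 Otulinl (0.07), for Loxl3 Lrp12 (0.11), for Loxl4 Lrrn2 (0.12), for Plod2 Cxcl16 (0.10) and for P4ha3 Bid (0.17), with log2 fold changes of 1.15, 1.22, 0.85, 1.76, 1.05 and 2.05.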

How the data were processed

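The authors deposited raw counts per gene and mouse. They were made with featureCounts after trimming by Trimmomatic 0.33 and alignment by STAR 2.5.1b to GRCm38.p5. Per their methods, poorly mapped reads were not counted and a read over several genes was counted for each. The strand setting is not given in the sources used here, and the labels name a stranded total RNA kit where the methods name a poly A kit.

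Genes were filtered with filterByExpr (minimum count 10, minimum total 15), scaled by TMM and tested with edgeR 4.0.16 in R 4.3.3, with 4 mice per genotype and no block. Standard errors were derived from the F statistics. For relative scales, the reference's counts in each mouse (a sum for collagen, a geometric mean for markers) took the place of library size. Their p-values were again adjusted over all 14001 genes, and the test makes no allowance for noise in the shared reference. Log2 ratios used counts plus 0.5. Between mice of a genotype the chi-square of counts was at least 12.6 per degree of freedom, so each counted as a replicate. Exon lengths and positions came from GENCODE M21. The fit was tested on simulated data with as many genes raised as lowered. The calls here were less balanced, so the simulation does not test the scaling in this setting.

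The members and lists were chosen with earlier results of these data known, and 1 gene of the TGF-beta list is not reported here. All 10 members are named, with the 2 highest and 2 lowest genes of a list, family enzymes, and the nearest gene of each called member. Alternatives were other scaling, DESeq2 1.42.0, the exact test of edgeR, other filters, either replicate block, other references and leaving out each mouse.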

Additional observations from a re-analysis of the deposited data

Results flagged for a closer look

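In 7 of 112 groups of 4 mice, the highest or lowest mouse stood farther from the others than Dixon's criterion allows, which chance does in about 1 group of 20. Loxl4 was at 7.40 CPM in mutant 4, with the other mutants at 10.3 to 10.7 CPM. P4ha3 was at 5.38 CPM in mutant 1, with the others at 3.18 to 3.24 CPM. Serpinh1 was at 149 CPM in control 1, with the other controls at 220 to 234 CPM. Control 2 stood apart in the log2 ratio of Lox to Loxl2, at -1.68 with the other controls at -1.24 to -1.21, and in that of Lox to Loxl3, at 0.43 with the others at 0.75 to 0.78. The log2 ratio of P4ha1 to P4ha2 was 0.82 in control 4 and 0.49 to 0.53 in the other controls. The log2 ratio of P4ha1 to P4ha3 was 6.60 in control 3 and 5.44 to 5.63 in the others.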

How the results depend on the processing

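The same 7 members were called higher under every alternative in normalization, filter, test and block and without each mouse. Without the fold threshold 9 were higher in the comparison reported, and this number changed with Plod3 and Serpinh1 between alternatives. Plod3, at 0.27 in the comparison reported, passed the adjusted p under library size alone (0.48), upper-quartile factors (0.30), the exact test of edgeR (0.27), DESeq2 (0.27), at least 10 counts in every mouse (0.28) and a replicate block on the numbers of the sample descriptions (0.28). Serpinh1 no longer passed under a replicate block on the numbers of the titles (0.38; edgeR, adjusted p = 0.0848). Same-numbered mice did not deviate together, with a mean correlation of -0.11 for the title numbers and -0.03 for the description numbers, and the title block called 1637 genes higher against 1806 without it. Leaving out each mouse in turn gave 0.17 to 0.33 for Plod3, 0.23 to 0.42 for Serpinh1, and 3 to 5 members higher relative to the fibroblast markers.

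Values near 0 changed sign when a mouse was left out. Relative to fibrillar collagen, Loxl1 ran from -0.0045 to 0.24 and Plod2 from -0.20 to 0.10. Relative to the fibroblast markers, Loxl3 ran from -0.162 to 0.0694 and Plod2 from -0.0151 to 0.261, and Plod2 was at -0.0601 with Pdgfra alone as the reference. Relative to the tendon markers, Loxl1 ran from -0.0319 to 0.32 and Plod2 from -0.20 to 0.17, and the mean within-mouse ratio of Plod2 differed by 0.0210. The log2 ratio of Lox to Loxl1 differed by -0.11 to 0.20 between the genotypes, and that of Plod1 to Plod3 by -0.13 to 0.02. The causes were not tested. The calls of Plod3 and Serpinh1 on adjusted p, whose standard errors were 0.10 and 0.13, changed with single mice, and P4ha3 rests on as few as 22 counts in a mouse.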
